A study of Caenorhabditis elegans with 2 samples.

Results

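The large-subunit ribosomal protein genes of Caenorhabditis elegans were examined for binding of tagged ZK546.5, measured by chromatin immunoprecipitation followed by sequencing (ChIP-seq). They were taken by symbol, rpl- plus a number with or without a paralog suffix, which gave 45 of the 46926 genes in the WBcel235 annotation, all among its 19985 protein-coding genes. Genes of the mitochondrial ribosome (mrpl-) were left out, and so were rpl-7A and rpl-36.A, whose symbols carry a letter. The material was whole L4 larvae, of mixed sex, of strain OP231, which carries unc-119(ed3) and the insertion wgIs231. That transgene expresses ZK546.5 with GFP-FLAG at its C-terminus. There were 2 biological replicates of this 1 group and no other stage, strain or treatment, so all comparisons are between genes or between lists of peaks. The labels give the age of the larvae as unknown, and the promoter that drives the transgene is not stated. All worms came from 1 transgenic line, and the whole animal was measured, so the cells in which a site was bound cannot be named.

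The large ribosomal subunit joins amino acids into protein. Its proteins fold and hold the ribosomal RNA, line the tunnel through which the new chain leaves, and form the stalks that work with transfer RNA and elongation factors. Cells need them in near equal numbers, and ribosomal protein genes are among the most strongly transcribed genes of growing animals. In C. elegans many transcripts are trans-spliced, that is, their first stretch is replaced by a short leader. The annotated 5′ end can then lie close to the start codon and downstream of the place where transcription began.

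The DNA under the summits is shown first, since several members carried the same short words there. The ones printed are the strongest members whose sequence can be given and 2 weaker ones with the same word (rpl-6 and rpl-22). Each is 141 bp centred on the reproducible summit, in ce11 (WBcel235), 5′ to 3′ on the strand of the gene. Capitals mark ACCGTA or its reverse complement TACGGT, and GCGCAC or its reverse complement GTGCGC. The window of rpl-35 has no copy of ACCGTA.
rpl-11.2, chrX:2242917-2243057, minus strand: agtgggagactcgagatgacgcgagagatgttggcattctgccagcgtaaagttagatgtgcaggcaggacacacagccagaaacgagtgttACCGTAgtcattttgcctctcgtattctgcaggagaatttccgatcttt
rpl-5, chrII:8569465-8569605, plus strand: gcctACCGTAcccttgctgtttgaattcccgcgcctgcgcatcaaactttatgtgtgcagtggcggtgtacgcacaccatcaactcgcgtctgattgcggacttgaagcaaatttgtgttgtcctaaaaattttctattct
rpl-3, chrIII:3867496-3867636, plus strand: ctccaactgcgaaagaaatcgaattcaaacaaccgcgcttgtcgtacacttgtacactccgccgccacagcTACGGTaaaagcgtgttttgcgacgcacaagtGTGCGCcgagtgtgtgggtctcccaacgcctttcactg
rpl-33, chrII:7105119-7105259, plus strand: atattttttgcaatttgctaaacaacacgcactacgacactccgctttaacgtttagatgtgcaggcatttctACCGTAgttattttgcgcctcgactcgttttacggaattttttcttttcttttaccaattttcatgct
rpl-20, chrIV:4750009-4750149, minus strand: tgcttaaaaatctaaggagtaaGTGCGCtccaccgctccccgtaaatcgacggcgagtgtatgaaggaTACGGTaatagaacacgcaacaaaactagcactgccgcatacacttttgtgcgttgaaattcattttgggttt
rpl-35, chrIII:7854617-7854757, plus strand: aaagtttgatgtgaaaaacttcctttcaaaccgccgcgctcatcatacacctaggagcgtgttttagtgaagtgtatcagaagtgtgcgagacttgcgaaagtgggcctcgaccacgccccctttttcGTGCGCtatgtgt
rpl-6, chrIII:7208040-7208180, plus strand: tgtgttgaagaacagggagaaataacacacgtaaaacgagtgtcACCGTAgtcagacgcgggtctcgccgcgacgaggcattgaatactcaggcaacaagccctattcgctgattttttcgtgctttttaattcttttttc
rpl-22, chrII:5055312-5055452, plus strand: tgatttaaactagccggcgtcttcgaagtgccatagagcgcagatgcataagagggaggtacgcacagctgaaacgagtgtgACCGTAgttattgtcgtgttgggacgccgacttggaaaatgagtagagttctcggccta
The windows of rpl-11.2 and rpl-33 also share an exact run of 15 bases in the same orientation, ttagatgtgcaggca, which lies before ACCGTA in both.

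The data were peak lists. The authors' reproducible list, thresholded on the agreement of peak ranks between replicates, held 304 peaks, and the pooled list held 30000, which include background. The 304 were those of highest signal in the pooled list, so a rank is the same in both. Each replicate list also held 30000 peaks, and the 304 strongest of each were used beside the reproducible list. Signal is the authors' own value per peak. It was used within a list only, since how it was scaled is not stated. Depth was unknown, since the lists hold no read numbers.

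Of the 45 rpl genes, 21 (46.7%) had a reproducible summit within 500 bp of an annotated 5′ end. Among protein-coding genes the share was 1.39%, among all annotated genes 0.837%, and among protein-coding genes with any pooled summit in that window 3.84%. The 21 genes had 21 different peaks, which were 6.91% of the reproducible list. Both replicates gave similar counts on their own. The 304 strongest peaks of replicate 1 lay near 19 members (42.2%, against 1.36% of protein-coding genes) and those of replicate 2 near 18 (40%, against 1.14%), with 15 members in common. Any pooled summit was near 40 members (88.9%, against 36.1% of protein-coding genes). Members were chosen by symbol, and these counts are a description with no test. Earlier results of the same data had already shown ribosomal protein genes near many peaks.

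The members' peaks reached from the top of the list to near its end. Of the 21, 9 were among the 50 strongest peaks and filled 18% of those places and the lowest ranked 264. Their median signal was 82.7, against 46.6 for the other 283 reproducible peaks. For 20 of the 21 a summit of each replicate lay within 100 bp of the reproducible summit. Between replicates the summits of these 20 were 1 to 71 bp apart, with a median of 18 bp. Spearman's rho of the 20 members' ranks between the replicates was 0.895. It is a description across genes whose peaks had the 304 highest signals when the same replicates were pooled. A single peak did not need like ranks in both, since that of rpl-24.1 ranked 116 in replicate 1 and 3831 in replicate 2.

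**Figure D1:**
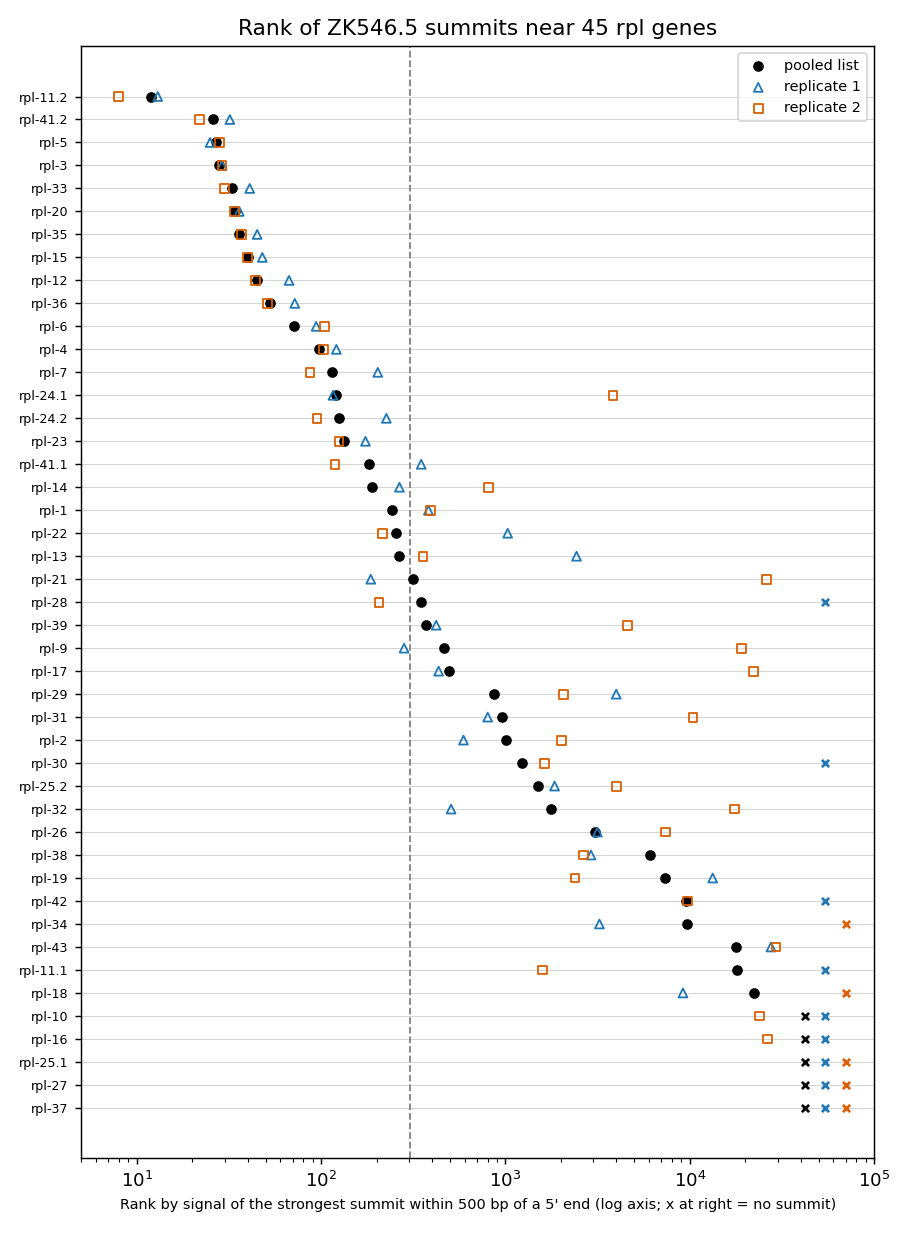
Rank by signal (log axis, 1 is the strongest) of the strongest summit within 500 bp of a 5′ end for the 45 rpl genes, in the pooled list and in each replicate; crosses at the right stand for no summit and the dashed line for rank 304. The 21 genes at the top lie left of the line in the pooled list, and the replicates spread apart further down.

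Of the 3 members that bind 5S ribosomal RNA, 2 had strong peaks. The 3 are rpl-5 and the paralogs rpl-11.1 and rpl-11.2, whose products enter the subunit together with that RNA. The peak of rpl-11.2, at chrX:2242808-2243161, was the strongest of all members, with a signal of 797 (rank 12) in the pooled list, 408 (rank 13) in replicate 1 and 391 (rank 8) in replicate 2. Its summit lay 369 bp upstream of the gene, and the replicate summits were 1 bp apart. The 5′ ends of the non-coding RNA genes AH9.7 and linc-78 were nearer, each 128 bp from the summit. The peak of rpl-5, at chrII:8569368-8569680, had a signal of 356 (rank 27) in the pooled list, 204 (rank 25) in replicate 1 and 150 (rank 28) in replicate 2. Its summit lay 392 bp upstream, in an annotated exon with neither coding sequence nor UTR. The 5′ end of the non-coding RNA gene F54C9.17 was nearer, at 27 bp. For rpl-11.2 and rpl-5 the ranks differed little between replicates. The third gene, rpl-11.1, had no reproducible summit and is described with its paralog below.

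Near the peptidyl transferase centre, where peptide bonds form, 1 of 3 genes had a reproducible summit. It was rpl-3, at chrIII:3867430-3867719, with a signal of 325 (rank 28) in the pooled list, 190 (rank 29) in replicate 1 and 137 (rank 29) in replicate 2. The summit lay 288 bp upstream. The other two were rpl-2 and rpl-10. Near rpl-2 the pooled summit ranked 1011 and lay 409 bp upstream. The pooled list had none within 500 bp of rpl-10, whose product joins late in subunit assembly. Its nearest pooled summit was 556 bp away.

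The 2 stalk genes among the members, rpl-1 and rpl-12, both had reproducible summits. For rpl-12, whose product sits at the base of the stalk that receives elongation factors, the signal was 136 (rank 45) in the pooled list, 66.0 (rank 67) in replicate 1 and 69.4 (rank 44) in replicate 2. For rpl-1, of the stalk on the side where transfer RNA leaves, it was 35.5 (rank 241), 16.95 (rank 382) and 17.7 (rank 394), respectively. The summit of rpl-1 therefore lay outside the 304 strongest of either replicate on its own. It lay 249 bp upstream of rpl-1 and 3 bp from the start of the non-coding RNA gene Y71F9AL.19.

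Of 9 genes whose products line the exit tunnel or surround its exit, 2 had a reproducible summit. At rpl-35 (exit) the signal was 206 (rank 36) in the pooled list, 107 (rank 45) in replicate 1 and 97.5 (rank 37) in replicate 2. Its summit, 447 bp upstream, was the farthest of the 21. At rpl-4 (tunnel wall) the signal was 65.2 (rank 98), 35.9 (rank 121) and 30.3 (rank 103), respectively, with the summit 310 bp upstream. The other seven were rpl-17, rpl-19, rpl-25.1, rpl-25.2, rpl-26, rpl-31 and rpl-39. Pooled summits were within 500 bp of each of these but rpl-25.1. These role groups are small, and no order among them is drawn from the counts.

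The remaining reproducible summits belonged to proteins spread over the body of the subunit and to both pairs rpl-24 and rpl-41. Signals of 253 at rpl-33 (rank 33), 250 at rpl-20 (rank 34), 174 at rpl-15 (rank 40) and 111 at rpl-36 (rank 53) were followed by 82.7 at rpl-6 (rank 71). These 5 were among the 104 strongest peaks of both replicates. Signals of 60.02 at rpl-7 (rank 114) and 53.0 at rpl-23 (rank 133) came next, also within the 304 strongest of both. The weakest of these were rpl-14 (40.3, rank 188), rpl-22 (34.5, rank 256) and rpl-13 (34.0, rank 264). The summit of rpl-22 ranked 1028 in replicate 1 and 215 in replicate 2, and that of rpl-14 ranked 266 and 813. No summit of replicate 1 lay within 100 bp of that of rpl-13, which ranked 357 in replicate 2.

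Of the 24 members without a reproducible summit, 19 had a weaker pooled summit, 15 of them with the nearest one upstream. The 3 just outside the reproducible list were rpl-21 (signal 31.6, rank 317), rpl-28 (30.3, rank 350) and rpl-39 (29.2, rank 372), at 321, 281 and 249 bp upstream. The lowest reproducible signal was 32.2. The replicates did not give these 3 the same place. The summit near rpl-21 ranked 186 in replicate 1 and 26112 in replicate 2, that near rpl-39 ranked 421 and 4598, and rpl-28 had a summit of rank 206 in replicate 2 and none in replicate 1. Near rpl-9 the ranks were 282 in replicate 1 and 19040 in replicate 2. The strongest pooled summit ranked within the first 1000 for 7 of the 19 and within 2000 for 11. No list held a summit within 500 bp of rpl-25.1, rpl-27 or rpl-37. A strong peak of rank 16 lay 715 bp from the 5′ end of rpl-27, on its downstream side, and its summit was 63 bp from egl-30, a G protein alpha subunit gene. Reproducible summits also lay 606 bp downstream of a 5′ end of rpl-31 and 755 bp upstream of rpl-43.

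The summits sat well upstream of the genes. All 21 were upstream of the annotated 5′ end and of the start codon, at a median of 303 bp from the 5′ end, and 19 lay between 200 and 450 bp (90.5%). For the 256 other protein-coding genes with a reproducible summit, 91.4% were upstream, the median distance was 200 bp, and 114 (44.5%) lay between 200 and 450 bp upstream. The bounds of 200 and 450 bp were chosen after the values were seen, and the difference was not tested. The annotated 5′ end of the 21 members was close to the start codon, at a median of 6 bp and within 30 bp for 18 of them. The summits lay 114 to 463 bp upstream of the start codon, with a median of 316 bp. The exceptions at the near end were rpl-12, 23 bp from its nearest 5′ end and 114 bp from its start codon, and rpl-24.2, at 121 and 127 bp. Of the 21 summits 17 were intergenic, 3 were in annotated exons with neither coding sequence nor UTR and 1 was in an intron.

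**Figure D2:**
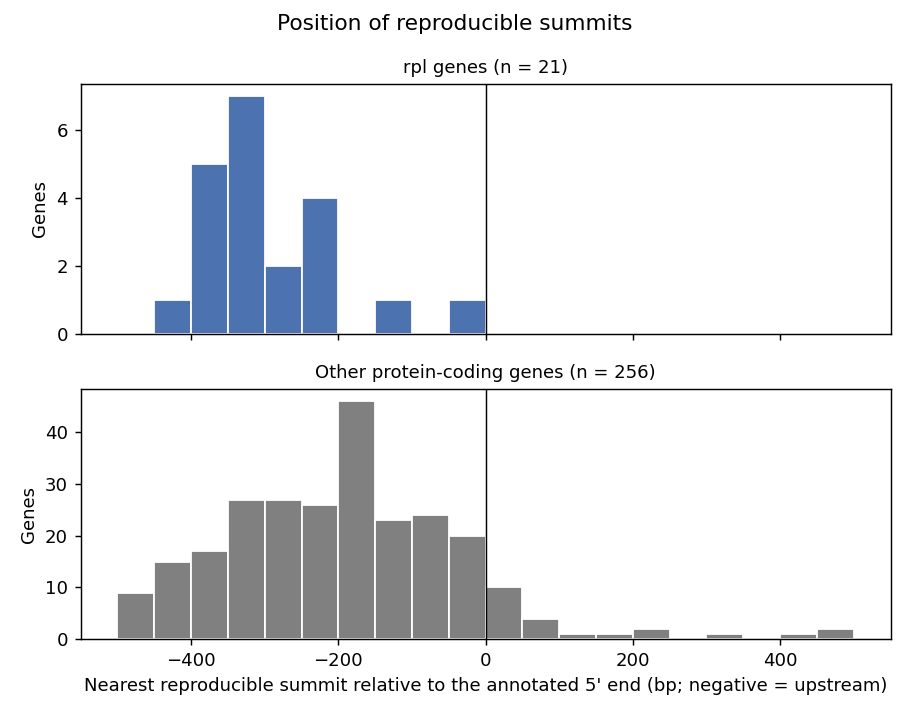
Distance in bp from the annotated 5′ end to the nearest reproducible summit, in bins of 50 bp, for 21 rpl genes (top) and 256 other protein-coding genes (bottom); the vertical axes count genes and negative values are upstream. The rpl summits are all upstream with a median of 303 bp, against a median distance of 200 bp below.

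The members' summits often lay near another gene as well. At 10 of the 21 another gene's 5′ end was nearer, and at 5 of these it was that of a protein-coding gene. These were B0041.8 (151 bp, against 310 bp for rpl-4), Y17G9B.5 (161 bp, against 301 bp for rpl-20), ify-1, which encodes the securin that restrains chromosome separation (203 bp, against 234 bp for rpl-22), farl-11 (154 bp, against 374 bp for rpl-33) and rps-14 (276 bp, against 387 bp for rpl-36). A protein-coding gene on the opposite strand also began within 500 bp and faced the summit at 10 of the 21. Some of these pairs joined both ribosomal subunits. The small-subunit gene rps-14 faced the summit of rpl-36, and rps-10 (385 bp) that of rpl-24.1 (225 bp). Other partners were lin-54, a subunit of the DREAM transcription complex, at 370 bp from the summit of rpl-12, K11H12.8 at 467 bp from that of rpl-15, and the cuticle collagen gene col-38 at 447 bp from that of rpl-5. Which gene such a peak belongs to cannot be told from position. At 16 of the 21 the member was the nearest protein-coding gene. The same counts were not made for the other reproducible summits, so none of them is shown to be particular to the members.

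The paralog pairs were compared by rank. Each pair has 2 genes, and 3 of 4 pairs had the same higher member in both replicates, with a missing summit taken as the lower. The 3 include the rpl-25 pair, in which neither gene had a reproducible summit. In the rpl-11 pair, whose coding sequences are 84.4% identical over 588 nt, rpl-11.2 had the strongest peak of the members, and rpl-11.1 had a pooled summit of signal 9.59 (rank 18017) 83 bp inside the gene. Near rpl-11.1 replicate 1 had no summit within 500 bp, and replicate 2 had 1 of rank 1580, 490 bp downstream. The nearest reproducible summit was 395389 bp away. Upstream of rpl-11.1 ACCGTA lies 367 bp from the 5′ end, and rpl-11.2 has it 344 bp upstream. GCGCAC also lies 171 bp upstream of rpl-11.1, and the 500 bp upstream of rpl-11.2 hold no copy of it. Whether either word bears on the difference between the paralogs was not tested. The 141 bp around the ACCGTA of rpl-11.1, shown for comparison with the window of rpl-11.2, are as follows.
rpl-11.1, chrV:3586361-3586501, minus strand: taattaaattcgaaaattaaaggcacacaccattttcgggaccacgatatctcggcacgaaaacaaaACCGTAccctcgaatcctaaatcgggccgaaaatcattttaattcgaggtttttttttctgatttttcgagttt
Over 500 bp upstream the pair is 49.2% identical in a global alignment.

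The rpl-41 genes encode very short peptides (66 nt of coding sequence each, 98.5% identical) and lie in tandem on 1 chromosome with summits 1141 bp apart. The summit 245 bp upstream of rpl-41.2 had a signal of 358 (rank 26) in the pooled list, 149 (rank 32) in replicate 1 and 211 (rank 22) in replicate 2. For rpl-41.1, at 284 bp, the signal was 41.6 (rank 183), 17.8 (rank 349) and 27.1 (rank 119), respectively. The order was the same in each list. The 344 bp windows around the summits shared no exact stretch of 36 bases on either strand. Reads over the coding sequences, which are almost the same, could be split between the copies. Whether this bears on the difference in signal was not tested.

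The rpl-25 pair, whose products sit at the tunnel exit, had no reproducible summit. For rpl-25.2 the pooled summit, 182 bp upstream, had a signal of 19.4 (rank 1500), and its ranks were 1847 in replicate 1 and 4008 in replicate 2. The nearest pooled summit to rpl-25.1 was 2878 bp away and ranked 28406. In the rpl-24 pair both had a reproducible summit of similar rank, 120 for rpl-24.1 (signal 58.4, 225 bp upstream) and 125 for rpl-24.2 (56.1, 121 bp). The replicates gave them opposite order. Replicate 1 ranked rpl-24.1 at 116 and rpl-24.2 at 226, and replicate 2 ranked them at 3831 and 95. The product of rpl-24.1 joins the subunits, and rpl-24.2 resembles the yeast ribosome assembly factor Rlp24, with 54.4% identity between the coding sequences of the pair.

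The word ACCGTA was the most frequent of 3 words looked for, which were taken from earlier results of these data. Windows of 200 bp centred on the summits were searched on both strands. The first word was ACCGTA. Another word was GCGCAC. The longest was TGCGTCTC, and copies of different words did not overlap in the members' windows. ACCGTA was in 12 of the 21 windows (57.1%), in 18.7% of the 283 other reproducible windows, and in 27.7% of the 177 of those within 500 bp of a protein-coding 5′ end. It was in 5.28% of 29696 pooled windows that were not reproducible. GCGCAC was in 7 (33.3%), against 21.9%, 27.7% and 3.14%. TGCGTCTC was in 1 (4.76%), at rpl-41.2, against 12.4%, 11.3% and 1.62%. No copy of any of the words was in 5 of the 21 windows, those of rpl-4, rpl-13, rpl-23, rpl-36 and rpl-41.1. Since ACCGTA was named from a set of peaks that includes these, its count is a description and supports nothing on its own.

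**Figure D3:**
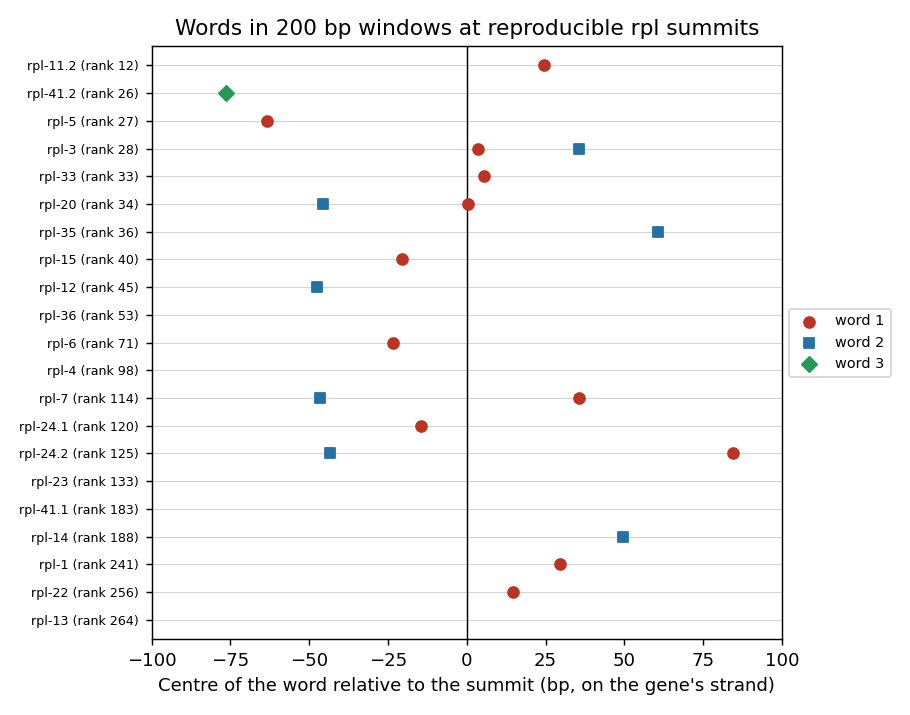
Centre of each word relative to the summit in bp, on the strand of the gene, for the 21 members ordered by rank; word 1 is ACCGTA, word 2 is GCGCAC and word 3 is TGCGTCTC, on either strand. ACCGTA lies within 35 bp of the summit in 9 of the 12 windows that hold it.

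ACCGTA lay close to the summit. Its centre was a median of 22 bp away in the 12 windows, and within 35 bp in 9, a bound chosen after the values were seen. At rpl-20, rpl-3 and rpl-33 the centre was 0.5, 3.5 and 5.5 bp away, which is less than the median gap between replicate summits. In the 53 other reproducible windows with the word the median was 27.5 bp, and in the pooled windows that were not reproducible it was 49.5 bp. It read along the gene's strand in 8 windows and against it in 4. The word was in 6 of the 9 members' windows among the 50 strongest peaks and in 6 of the 12 below. Around the 12 copies, read on the strand of the word, the most shared bases lay before it, with A at the sixth base before in 9 and T at the fourth before in 9. T stood at each of the 2 bases just before the word in 8, and at the second and the fifth base after it in 8, and C at the third after it in 7.

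Members without a reproducible summit had the word too. In the 500 bp upstream of the outermost 5′ end it was found in 13 of the 21 members with a reproducible summit and in 11 of the 24 without (61.9% and 45.8%). In the 11 members without, A stood at the sixth base before the word in 7, T at the fourth before in 6, and T at the second and C at the third after it in 7 each. The other positions named above were less shared there. T stood at the second base before the word in 5, at the base just before it in 3 and at the fifth after it in 5. Among all 19973 nuclear protein-coding genes the share was 13.9%. For GCGCAC the counts were 7 and 6, against 8.90%. In the stretch from 250 bp before to 50 bp after the 5′ end, ACCGTA was in 7 of the 45 members (15.6%), against 8.11% of all. A match is a run of letters, and whether any of them is bound was not tested.

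Other 6-mers were also frequent in the 21 windows. They were listed after the values were seen, as those in 9 or more windows and in under 10% of the pooled windows that were not reproducible. ACACTC was in 10 (47.6%, against 19.8% of the other reproducible windows and 6.01% of the others in the pooled list). A further 4 were in 9 windows each (42.9%). ACACGC was in 15.6% of the other reproducible windows. CACTCG, which overlaps ACACTC and can mark the same places, was in 12.7% of them. GAGACC was in 19.1% of them. CGTAAA was in 9.54% of them. In the other reproducible windows within 500 bp of a protein-coding 5′ end the shares were higher. They were 22.0% for ACACTC, 18.6% for ACACGC, 14.1% for CACTCG, 22.6% for GAGACC and 11.3% for CGTAAA. Longer runs were shared as well, up to 18 bases between rpl-24.1 and each of rpl-1 and rpl-11.2. Over the 210 pairs of members compared, the median shared run was 9 bases.

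Along the genome the members with reproducible summits were 9 of 15 on chromosome I, 3 of 8 on II, 5 of 9 on III, 3 of 6 on IV and 1 of 2 on X. On V none of 5 had one. These were rpl-2, rpl-11.1, rpl-28, rpl-38 and rpl-39, of which rpl-28 and rpl-39 were 2 of the 3 just outside the list. The share of all protein-coding genes called on each chromosome was not counted, so no difference between chromosomes is drawn from these counts.

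Other genes of the ribosome were counted in the same way. Of 32 small-subunit genes, counting ubl-1, 15 had a reproducible summit (46.9%), all upstream at a median of 282 bp. The strongest were rps-20 (1668), rps-19 (1006), rps-23 (715) and rps-26 (579). The counts for rpl and small-subunit genes share peaks, since rps-14 was counted at the peak of rpl-36 and rps-10 at that of rpl-24.1. Of 5 large-subunit genes outside the symbol rule 2 had one, rpl-7A (83.1, at 76 bp) and ubq-2 (35.2, at 320 bp), and the stalk genes rla-0, rla-1 and rla-2 had none. Among the 304 strongest peaks of each replicate 1 of these 5 had one (20%). At rpl-36.A, added after the annotation was read, the signal was 33.0 at 449 bp. Of 66 mitochondrial ribosomal protein genes none had a reproducible summit, while 37 (56.1%) had a pooled one. Among all protein-coding genes these shares were 1.39% and 36.1%, so the count of none stands close to the general share. Of 9 assembly and nucleolar genes 1 had one, eif-6 (57.5, at 341 bp upstream), whose product keeps the subunits apart. Differences between these lists were not tested.

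**Figure D4:**
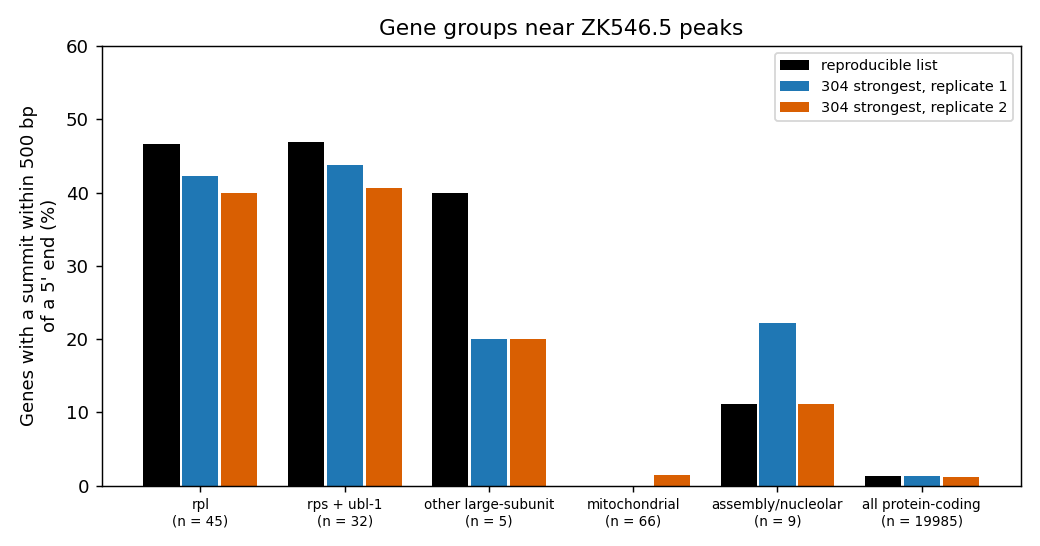
Percent of genes in each list with a summit within 500 bp of a 5′ end, in the reproducible list and among the 304 strongest peaks of each replicate; n is the number of genes in a list. The rpl and rps bars stand between 40% and 46.9%, those of mitochondrial ribosomal protein genes at 0 to 1.52%, and those of all protein-coding genes at 1.14% to 1.39%.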

How the data were processed

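Binding was measured by ChIP-seq in 2 replicates. The deposited lists give a signal value per peak (the seventh column). Per the text files deposited with them, a replicate list was made from its own alignments plus a control, the pooled list from both replicates plus that control, and the reproducible list from these 3. The aligner, the peak caller and the scaling of signal were not given in the sources used. Control reads were not analysed here. Lists in ce11 coordinates were joined to the WBcel235 genome and Ensembl release 115, and those in ce10 were not used, and no peak ended past a chromosome. Nearly all pooled peaks (29937) were 344 bp wide, so the summit, taken from the last column, is often the centre.

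A gene was counted when a summit lay within 500 bp of the 5′ end of any of its transcripts. Values use the nearest summit. In member accounts, a replicate's value is that of its summit within 100 bp of the reproducible one. Members, lists and words were chosen with earlier results of these data known. Named were members with a reproducible summit, paralog pairs, the 3 just outside, nearer protein-coding neighbours, some other neighbours and the strongest of other lists. No test was run, since the 2 replicates form 1 group. The distance and word functions were checked on simulated positions. Python 3.11.15, pandas 2.3.3, SciPy 1.17.1 and Biopython 1.88 were used.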

Additional observations from a re-analysis of the deposited data

How the results depend on the processing

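Position was the choice that mattered most. Within 200 bp of a 5′ end the members near a reproducible summit fell from 21 to 2, those near a pooled summit from 40 to 4, and those near the strongest peaks to 2 in each replicate. Summits upstream then numbered 2, those with another gene nearer 0, and windows with ACCGTA 1, with GCGCAC 2 and with TGCGTCTC 0. The share of all protein-coding genes within 200 bp was not counted. For the 256 others with a reproducible summit the median distance was 200 bp, against 303 bp for the members. Many of these 256 drop out too, but a smaller share than of the members. Only 2 members had the peak itself over a 5′ end. With 1 nearest gene of any type per peak the count was 11, and with 1 nearest protein-coding gene, a setting chosen after seeing the data, 16. In 100 bp windows GCGCAC was in 4 and TGCGTCTC in 0. Leaving out replicate 1 or replicate 2 gave 18 and 19 members, all upstream, 8 and 9 with another gene nearer, 9 and 10 windows with ACCGTA, 6 and 7 with GCGCAC, and 1 and 2 with TGCGTCTC. Of 59 alternatives 45 stayed within 1.5 times the reported count. The ordered paralog pairs numbered 3 under each of their alternatives. No paired analysis was possible because there is only 1 group. Depth and the spread between further cultures are unknown.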
